A study of Mus musculus with 35 samples.

Results

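The genes described here are 33 genes of glycolysis and of the response to low oxygen, chosen by name from the 53465 genes of the bulk table. They are 18 genes of the glycolytic pathway (*Hk1*, *Hk2*, *Gpi1*, *Pfkl*, *Pfkm*, *Pfkp*, *Pfkfb3*, *Aldoa*, *Aldoc*, *Tpi1*, *Gapdh*, *Pgk1*, *Pgam1*, *Eno1*, *Eno2*, *Pkm*, *Ldha* and *Ldhb*) and 15 genes of oxygen sensing and its targets (*Pdk1*, *Bnip3*, *Egln1*, *Egln3*, *Hif1a*, *Epas1*, *Arnt*, *Vhl*, *Car9*, *Ankrd37*, *Ddit4*, *Higd1a*, *Adm*, *Ndrg1* and *P4ha1*). All 33 were above the minimum level for the bulk test, a mean of 10 normalized counts over the 12 libraries. The study took E14.5 mouse brains apart and sorted neural cells, mural cells (the contractile cells that wrap small vessels), endothelial cells (which line them) and microglia (the resident macrophages of the brain). Bulk RNA-seq was done on the 4 populations of each of 3 brains, and the libraries are named by population and brain, so that N-340 and Mu-340 are neural and mural cells of 1 brain (Ec stands for endothelial, Mi for microglial, and the other brains have the names N-343 and N-346). Single-cell RNA-seq by mCEL-Seq2, which counts the 3' ends of transcripts with molecular identifiers, was done on 3 plates of wild-type cells and on 3 plates labelled *Mof* Knockout. *Mof* (*Kat8*) encodes a histone H4 acetyltransferase. The strain, the driver of the deletion and the cells that carry it are not given in the sources used here, and the knockout wells carry no sort gate. Neural cells were sorted by the absence of the vascular and immune surface markers, so that they are a mixture of progenitors and neurons.

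Glycolysis splits glucose into pyruvate in a chain of enzymatic steps, several of which are served by isozymes encoded by separate genes, and lactate dehydrogenase then interconverts pyruvate and lactate. When oxygen is scarce, the prolyl hydroxylases encoded by *Egln1* and *Egln3* no longer mark the alpha subunits HIF1A and EPAS1 for destruction by the VHL complex. The stabilised subunits pair with ARNT and bind short DNA elements with the core letters ACGTG or GCGTG near glycolytic genes and genes such as *Bnip3*, *Pdk1* and *Adm*. The transcript level of a HIF subunit is not a measure of its protein, which is set mainly by degradation.

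The libraries held between 17638358 and 98414914 reads on genes. Each population led in its own marker list. The summed level of 9 mural markers, for example, lay between 709288 and 766245 normalized counts in mural libraries and was 7008 at most in the others, and 4 of the 8 microglial markers (*C1qa*, *C1qb*, *C1qc* and *Fcrls*) were at 0 in all mural libraries. The mural libraries also held the 12 neural markers at a sum of 25358 to 47139, against 9246 to 18011 in endothelial and microglial libraries and 128068 to 138138 in neural libraries. The 6 progenitor markers, 4 of which are also in the neural list, summed to 24489 to 43666 in mural libraries, overlapping the neural libraries (29328 to 31698) and above endothelial and microglial ones (7594 to 14667). Mural libraries held fibroblast markers (4 genes) at 5640 to 7753, against 236 at most elsewhere. Border macrophage markers (4 genes) summed to 8983 to 11743 in microglial libraries and to 994 at most elsewhere, and their part in the microglial results was not tested. Red cell markers (7 genes) summed to 13054 to 34138 in endothelial, 9042 to 11841 in neural, 1678 to 2075 in microglial and 242 to 598 in mural libraries, and their part in the results was not tested. Immediate early and heat shock genes (8 genes, induced when tissue is dissociated) summed to 428238 to 587697 in microglial libraries, 125630 to 195497 in mural libraries, 58263 to 83519 in endothelial libraries and 25870 to 34095 in neural libraries, and their part in the results below was not tested. RNA of the neural cells was extracted and made into libraries with other kits (TruSeq) than that of the 3 other populations (SMART-Seq v4 and Nextera XT). In bulk, neural identity and kit cannot be told apart, and every contrast of a population against the mean of the other 3 contains both kits. The contrasts among mural cells, endothelial cells and microglia do not, and in the single cells all gates share 1 chemistry. A lower level in bulk can mean fewer cells of a type or less RNA per cell, which cannot be told apart.

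Promoters of 31 of the 33 genes, 44 windows in all, were matched by symbol in RefSeq (GRCm38.p6), each running from 250 bases before to 50 bases after a transcript start. The letters ACGTG, on either strand, were found in 23 of the 44 windows (52.3%), against 6447 of all 32851 promoter windows (19.6%), and GCGTG in 25 (56.8%) against 32.4%. A match is a string of letters and not a measured binding site. 20 of the 31 genes held ACGTG in some window. The windows of *Adm* and *Pdk1* held no ACGTG, while GCGTG was found 2 times in the window of *Adm* and 2 times in 1 of the 2 windows of *Pdk1*. The 5 windows below were chosen among those with the letters, for genes whose levels set populations apart in the sections that follow, with ACGTG or its reverse complement CACGT in capitals. Where both overlap they spell CACGTG, which is also the E-box read by MYC and related factors, as in *Ldha* and *Bnip3*. *Hk2*, *Bnip3*, *P4ha1* and *Ldha* were highest in microglia and *Ankrd37* in endothelial cells.
*Hk2* (chr6:82774405-82774704, minus strand): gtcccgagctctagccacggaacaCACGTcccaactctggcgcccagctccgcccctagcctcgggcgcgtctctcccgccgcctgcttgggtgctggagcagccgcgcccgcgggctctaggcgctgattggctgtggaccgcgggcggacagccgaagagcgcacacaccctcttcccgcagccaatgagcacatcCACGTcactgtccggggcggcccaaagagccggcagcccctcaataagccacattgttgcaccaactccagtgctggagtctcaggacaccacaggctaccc
*Bnip3* (chr7:138909457-138909756, minus strand): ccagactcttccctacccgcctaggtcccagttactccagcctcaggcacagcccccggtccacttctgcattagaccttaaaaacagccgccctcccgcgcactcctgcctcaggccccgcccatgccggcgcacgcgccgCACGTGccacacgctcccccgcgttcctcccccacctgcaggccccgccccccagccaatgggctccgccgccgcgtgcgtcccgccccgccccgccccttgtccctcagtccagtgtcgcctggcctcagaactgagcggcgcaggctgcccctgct
*P4ha1* (chr10:59323046-59323345, plus strand): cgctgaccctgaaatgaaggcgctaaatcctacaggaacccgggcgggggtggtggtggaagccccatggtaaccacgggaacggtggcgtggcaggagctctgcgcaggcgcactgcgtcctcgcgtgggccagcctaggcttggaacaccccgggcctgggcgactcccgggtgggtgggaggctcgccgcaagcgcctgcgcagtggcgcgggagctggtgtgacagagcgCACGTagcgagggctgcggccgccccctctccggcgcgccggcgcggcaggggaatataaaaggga
*Ldha* (chr7:46845554-46845853, plus strand): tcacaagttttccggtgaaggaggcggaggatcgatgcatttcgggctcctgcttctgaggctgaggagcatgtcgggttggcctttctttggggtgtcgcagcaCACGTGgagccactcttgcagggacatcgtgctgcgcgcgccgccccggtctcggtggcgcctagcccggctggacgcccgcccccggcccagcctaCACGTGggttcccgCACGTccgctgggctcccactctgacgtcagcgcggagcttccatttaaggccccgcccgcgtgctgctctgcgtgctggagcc
*Ankrd37* (chr8:45999801-46000100, minus strand): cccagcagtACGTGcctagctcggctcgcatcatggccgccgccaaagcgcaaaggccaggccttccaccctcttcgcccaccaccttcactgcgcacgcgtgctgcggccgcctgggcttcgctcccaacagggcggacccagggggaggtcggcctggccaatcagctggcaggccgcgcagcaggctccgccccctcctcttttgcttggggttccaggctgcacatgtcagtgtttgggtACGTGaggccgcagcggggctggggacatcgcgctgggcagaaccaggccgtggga

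Microglia had the most RNA of the glycolytic pathway. In bulk, 12 of the 18 pathway genes were higher in microglia than in the mean of the other 3 populations and 3 were lower. In the single cells, where *Eno2* could not be tested, 12 were higher and 3 lower. The genes differed in part. *Pkm* was called higher in bulk only and *Gapdh* in the cells only, and *Pfkp* was called lower in bulk only and *Pfkm* in the cells only. Together the 18 genes took 0.473% to 0.535% of all normalized counts in microglial libraries, 0.393% to 0.430% in mural, 0.347% to 0.375% in endothelial and 0.300% to 0.319% in neural libraries. The 4 ranges did not overlap. Over all 33 genes, 16 were higher in microglia and 7 lower in bulk (adjusted p under 0.05, limma), where 23.4% of all 19765 genes tested were higher and 22.3% lower. The median log2 difference of the 33 genes was 0.54, against -0.02 over all genes.

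**Figure D1:**
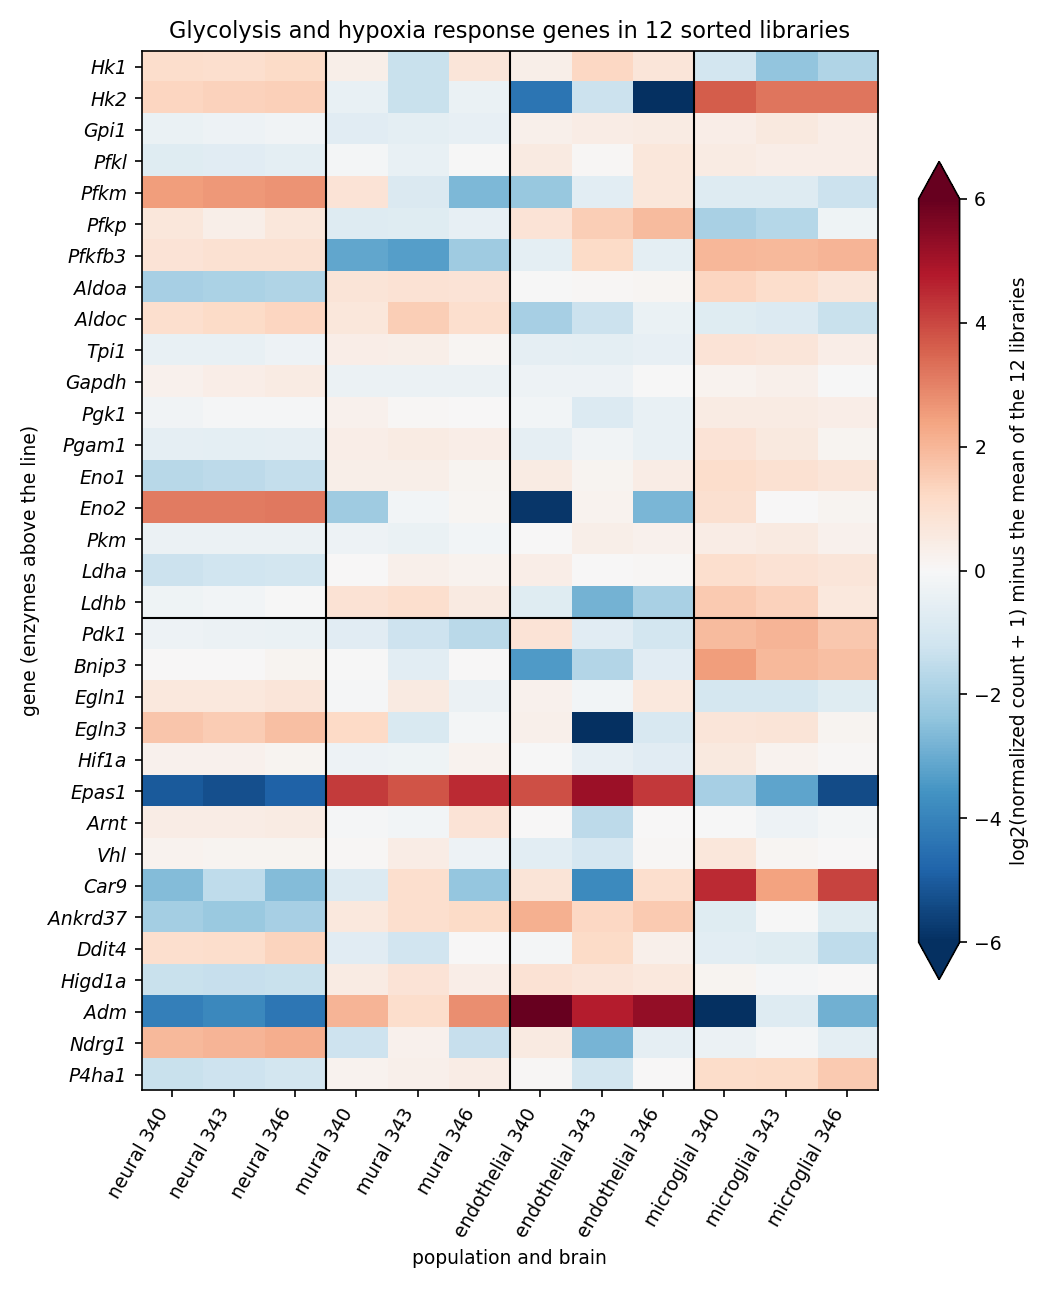
Rows are the 33 genes, with the 18 pathway genes above the line, and columns are the 12 bulk libraries by population and brain. Colour is log2(normalized count + 1) minus the gene's mean over the 12 libraries. Red in the 3 microglial columns marks genes such as *Hk2* and *Car9*, and the mural and endothelial columns share high *Epas1*.

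The first step, the phosphorylation of glucose by hexokinase, differed between microglia and the other cells in the RNA of its isozymes. *Hk2* (chr6:82725025-82774454), the inducible hexokinase, had 5389, 4006 and 4058 normalized counts in Mi-340, Mi-343 and Mi-346. It had 1046, 1106 and 1144 in neural libraries, 315, 169 and 327 in mural libraries and 19.5, 177 and 4.52 in endothelial libraries. No library of another population reached the lowest microglial one, and Ec-343 stood above the other 2 endothelial libraries. *Hk2* was higher in microglia by 4.49 on the log2 scale (SE 0.76, adjusted p = 0.00065) and lower in endothelial cells (log2 difference -5.31, SE 0.76, adjusted p = 0.0003). *Hk1* (chr10:62268855-62379908), the broadly expressed hexokinase, was lowest in microglia, with 462, 194 and 281 normalized counts in microglia against 2067, 2026 and 2229 in neural libraries. In mural libraries it ranged from 388 to 1669 and in endothelial libraries from 1262 to 2319. Its log2 difference was -2.34 in microglia (SE 0.40, adjusted p = 0.00072) and 1.44 in neural cells (SE 0.40, adjusted p = 0.0093), and the neural call was lost without the brain of N-346 (1.52). Per kilobase of exon, *Hk2* exceeded *Hk1* 21.6-fold in microglia, and *Hk1* exceeded *Hk2* 43.6-fold in endothelial cells. The endothelial value was 95.5-fold without Ec-343 and 19.8-fold without Ec-346. Exon length, here and below, was the union of all annotated exons of a gene, so that folds between genes depend on the annotation. The log2 ratio of *Hk2* to *Hk1* was 3.54 to 4.36 in microglial libraries and at most -0.87 in the 9 others (exact permutation test, two-sided, p = 0.00909, the smallest that 3 against 9 libraries allow, adjusted p = 0.036 over 32 tests of 8 ratios in 4 populations).

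The single cells gave the same split. *Hk2* was found in 61.7% of 128 cells of the microglial gate (exact 95% interval 52.7% to 70.2%), and in 13.8% of 123 neural, 8.6% of 210 mural and 1.3% of 225 endothelial cells. The median cell held 10761 transcripts in the microglial gate and 6408 to 7717 in the others, and such intervals cover counting error only. In CPM, transcripts scaled to the same total in every sum, *Hk2* had 130.2, 135 and 59.1 on plates 1, 2 and 3 in the microglial gate and at most 32.9 in any other gate and plate. The difference was 4.17 (SE 0.31, adjusted p = 1.2e-17, edgeR quasi-likelihood on sums per plate). *Hk1* had a difference of -2.24 in the microglial gate (SE 0.47, adjusted p = 7.8e-05).

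Fructose-6-phosphate is committed to glycolysis by phosphofructokinase, a tetramer of liver, muscle and platelet type subunits. *Pfkm* was led by neural and *Pfkp* by endothelial cells. *Pfkm* (muscle type) had 2764, 2895 and 3093 normalized counts in neural libraries and between 73.3 and 844 in the 9 others. It was higher in neural cells by 3.46 (SE 0.68, adjusted p = 0.0011) in bulk and by 2.40 (SE 0.49, adjusted p = 4.7e-05) in the neural gate of the single cells. *Pfkp* (platelet type) was highest in endothelial cells, with 2109, 3241 and 4366, and higher there by 1.87 in bulk (SE 0.33, adjusted p = 0.0011) and by 2.20 in cells (SE 0.35, adjusted p = 8.3e-07). In microglia *Pfkp* had 301, 360.5 and 974, Mi-346 standing above the other 2, and its ratio to *Pfkl* was below that of every other library. The gap was narrow, with a log2 ratio of -4.32 to -2.51 in microglia and at least -2.49 in the others. Mi-346 and Mu-340 lay on its 2 sides. *Pfkl* (liver type) had 5727 ± 247 (SD, n = 3) in microglia, 5800 ± 1201 in endothelial cells, 3718 ± 543 in mural cells and 2684 ± 134 in neural cells. Its levels in microglia and endothelial cells did not differ beyond their spread, with a log2 difference of 0.0032 (SE 0.16). The log2 ratio of *Pfkm* to *Pfkl* was 0.087 to 0.149 in neural libraries and at most -2.20 elsewhere (exact permutation p = 0.00909, adjusted p = 0.036).

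*Pfkfb3* makes fructose-2,6-bisphosphate, the main activator of phosphofructokinase. It had 5681, 5442 and 5748 normalized counts in microglia, 2545, 2671 and 2633 in neural cells, and only 164, 142 and 318 in mural cells. Endothelial libraries had 952, 3119 and 949, and Ec-343 stood above the other 2. The difference of microglia from the other 3 was 2.65 (SE 0.35, adjusted p = 0.00011), and that of mural cells -3.81 (SE 0.35, adjusted p = 1.4e-05). In the single cells it was found in 56.2% of microglial-gate cells and in 3.3% of mural-gate cells, and the 2 differences were 3.05 and -3.60 with adjusted p of 1.6e-14 and 2.9e-09. The higher level in neural libraries (1.18, adjusted p = 0.013) was lost without the brain of N-340 (1.06) and without the brain of N-346 (1.198), and the neural gate of the cells did not pass the test (-0.42, SE 0.43).

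Aldolase, which cuts the sugar in the middle of the pathway, was mostly *Aldoa* outside the neural population. *Aldoa* (chr7:126795234-126800751) had 31212, 27302 and 21762 normalized counts in microglia, 22217, 23501 and 23113 in mural cells, 12698, 13502 and 13958 in endothelial cells, and 3261, 3463 and 3728 in neural cells. All 3 neural libraries were below every other library. The neural difference was -2.53 in bulk (SE 0.10, adjusted p = 8.5e-09) and -1.85 in the single cells (SE 0.31, adjusted p = 1.1e-06). A second, short gene model carrying the same symbol was left out. *Aldoc* (chr11:78322968-78327781), the brain-type aldolase, had 2046, 2223 and 2450 in neural libraries and 1619, 2802 and 2021 in mural libraries, against 250, 412 and 760.1 in endothelial and 610, 564 and 403 in microglial libraries. Neural and mural ranges overlapped. The log2 ratio of *Aldoc* to *Aldoa* was -0.67 to -0.61 in neural libraries and at most -3.07 elsewhere (exact permutation p = 0.00909, adjusted p = 0.036).

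Most *Aldoc* transcripts of the mural gate lay outside the mural-like cells. Clusters were made without the 33 genes and named from markers. Of 210 mural-gate cells 183 fell into mural-like and 15 into neural-like clusters, and these 15 cells held 66.1% of the *Aldoc* transcripts of the gate (35 of 53), at 336 CPM against 12.7 in the mural-like cells. By plate the mural gate had 52.3, 22.5 and 13.7 CPM of *Aldoc* and 1208, 563 and 206 CPM of the neural markers. In the endothelial gate, 7 neural-like cells of 225 held 64% of *Aldoc* (16 of 25 transcripts). In the microglial gate *Aldoc* had 0 transcripts in 128 cells, which allows a share of cells with a captured transcript of up to 2.34% at 3 counts in 128 cells (2.84% as the upper end of the exact 95% interval), and the neural gate was at least 28.9-fold higher, taken over the floor of 3 counts in the gate. The bulk mural libraries, as given above, carried neural markers at a higher sum than endothelial or microglial ones and progenitor markers at a sum that overlapped that of the neural libraries, and the part of such cells in the bulk *Aldoc* level was not tested. The bulk mural difference of 1.40 (SE 0.30, adjusted p = 0.0033) was lost without the brain of N-343 (1.203).

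Among the genes of the part of the pathway below aldolase, *Tpi1* (triose phosphate isomerase) had 8196 ± 1199 (SD, n = 3) in microglia, 6261 ± 592.5 in mural cells, 3910 ± 211 in neural cells and 3543 ± 156 in endothelial cells. *Pgk1*, which makes the first ATP of the pathway, had 3168 ± 100.9 in microglia, 2510 ± 192.05 in mural, 2121 ± 111 in neural and 1674 ± 384 in endothelial cells. *Pgam1* had 1783 ± 404 in microglia and 1628 ± 49.4 in mural cells, against 923 ± 118 and 819.5 ± 21.8 in endothelial and neural cells. All 3 were higher in microglia in bulk, by 0.88, 0.62 and 0.71, and in the single cells, by 1.22, 1.38 and 0.91. Each was lower in endothelial cells in bulk, by -0.72, -0.64 and -0.53. *Gpi1* (glucose phosphate isomerase) was higher in both microglia (0.62) and endothelial cells (0.55) and lower in mural and neural cells (-0.77 and -0.39). *Gapdh* had 12530 to 14459 in neural libraries, overlapping microglia (10107 to 12784), with a neural difference of 0.52. In the cells the neural difference was -0.06 (SE 0.29) and did not pass, and *Gapdh* was higher in the microglial gate (0.73, SE 0.27, adjusted p = 0.025), a call lost with DESeq2 (0.61), without a filter (0.74) and without plate 1 (0.62) or 2 (0.70). *Gapdh* was also higher in microglia than in mural cells (0.52, adjusted p = 0.004), a call lost without the brain of N-340 (0.49) and without the brain of N-343 (0.45). With brain as a replicate block, its calls between endothelial cells and the other 3 (adjusted p = 0.064) and between microglia and endothelial cells (adjusted p = 0.054) did not pass, nor did that of *Tpi1* between microglia and mural cells (adjusted p = 0.051). The first of these was also lost with edgeR on the recovered reads and without a filter, the second with edgeR and after quantile normalization (0.19), and that of *Tpi1* in all 3 of these settings. The level of *Gapdh* ranged from 8016 to 14459 over the 12 libraries. The *Pgam1* call in microglia was lost without the brain of N-340 (0.53), and that in endothelial cells without the brain of N-340 (-0.40) or of N-343 (-0.62) and after quantile normalization (-0.38).

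Enolase showed the best known split between neurons and other cells. *Eno2* (chr6:124760053-124769673), neuron-specific enolase, had 498, 507 and 520.2 normalized counts in neural libraries and at most 112 in any other library. It was at 0 in Ec-340. The neural difference was 4.19 (SE 1.01, adjusted p = 0.004), lost without the brain of N-346 (4.28). *Eno1* (chr4:150236721-150248879) had 26470.0, 24170.0 and 20933 in microglia, 16310, 16240 and 14431 in mural, 18164, 14516 and 17755 in endothelial, and 4064, 4333 and 4797 in neural libraries. Its neural difference of -2.07 (SE 0.10, adjusted p = 3.1e-08) was -0.47 in the single cells (SE 0.27, adjusted p = 0.17), which did not pass. Even in neural libraries *Eno1* exceeded *Eno2* 7.54-fold per kilobase of exon. The log2 ratio of *Eno2* to *Eno1* was -3.20 to -3.03 in neural libraries and at most -7.74 elsewhere (exact permutation p = 0.00909, adjusted p = 0.036). Near-identical copies of *Eno1* and *Pgk1* exist in the mouse genome, and reads shared with them may have been split.

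*Pkm*, the muscle and brain pyruvate kinase, had the most normalized counts of the 33 genes in neural, endothelial and microglial libraries. It had 37126 ± 3622 (SD, n = 3) in microglia, 32579 ± 3492 in endothelial, 22878 ± 2123 in mural and 22038 ± 235 in neural libraries. Per kilobase of exon *Pkm* was below *Aldoa* in microglia, at 7424 against 9192. Its neural difference of -0.45 (adjusted p = 0.00072) turned to 0.060 after quantile normalization, so that its direction rests on the scaling. The microglial difference of *Pkm* (0.54, called) fell to 0.016 under it and did not pass. *Ldha*, the lactate dehydrogenase subunit that favours lactate formation, had 21188, 19233 and 17572 in microglia and 4255, 4585 and 4949 in neural cells. Mural libraries held 10752 to 12847 and endothelial libraries 10854 to 13709, which did not differ beyond their spread (0.015, SE 0.12). *Ldha* was higher in microglia by 1.16 in bulk (SE 0.10, adjusted p = 3.5e-06) and by 1.08 in cells (SE 0.27, adjusted p = 0.00074), and lower in neural cells by -1.60 and -0.80. *Ldhb*, the subunit that favours lactate use, had 12625, 11161 and 6723 in microglia, 7929, 8693 and 6279 in mural, 3574, 3854 and 4191 in neural, and 2637, 599 and 1119 in endothelial libraries. Every endothelial library was below every other library. The endothelial difference was -2.45 in bulk (SE 0.35, adjusted p = 0.00031) and -3.23 in cells (SE 0.37, adjusted p = 9.1e-11). In the neural gate *Ldhb* was higher by 1.90 (SE 0.25, adjusted p = 7e-09), while the bulk neural difference was -0.21 (SE 0.35) and did not pass. The ratio of *Ldhb* to *Ldha* separated the neural libraries from above (log2 -0.25 to -0.24, others at most -0.44) and the endothelial libraries from below (-4.18 to -2.38, others at least -1.39), both at an exact permutation p of 0.00909 and an adjusted p of 0.036.

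**Figure D2:**
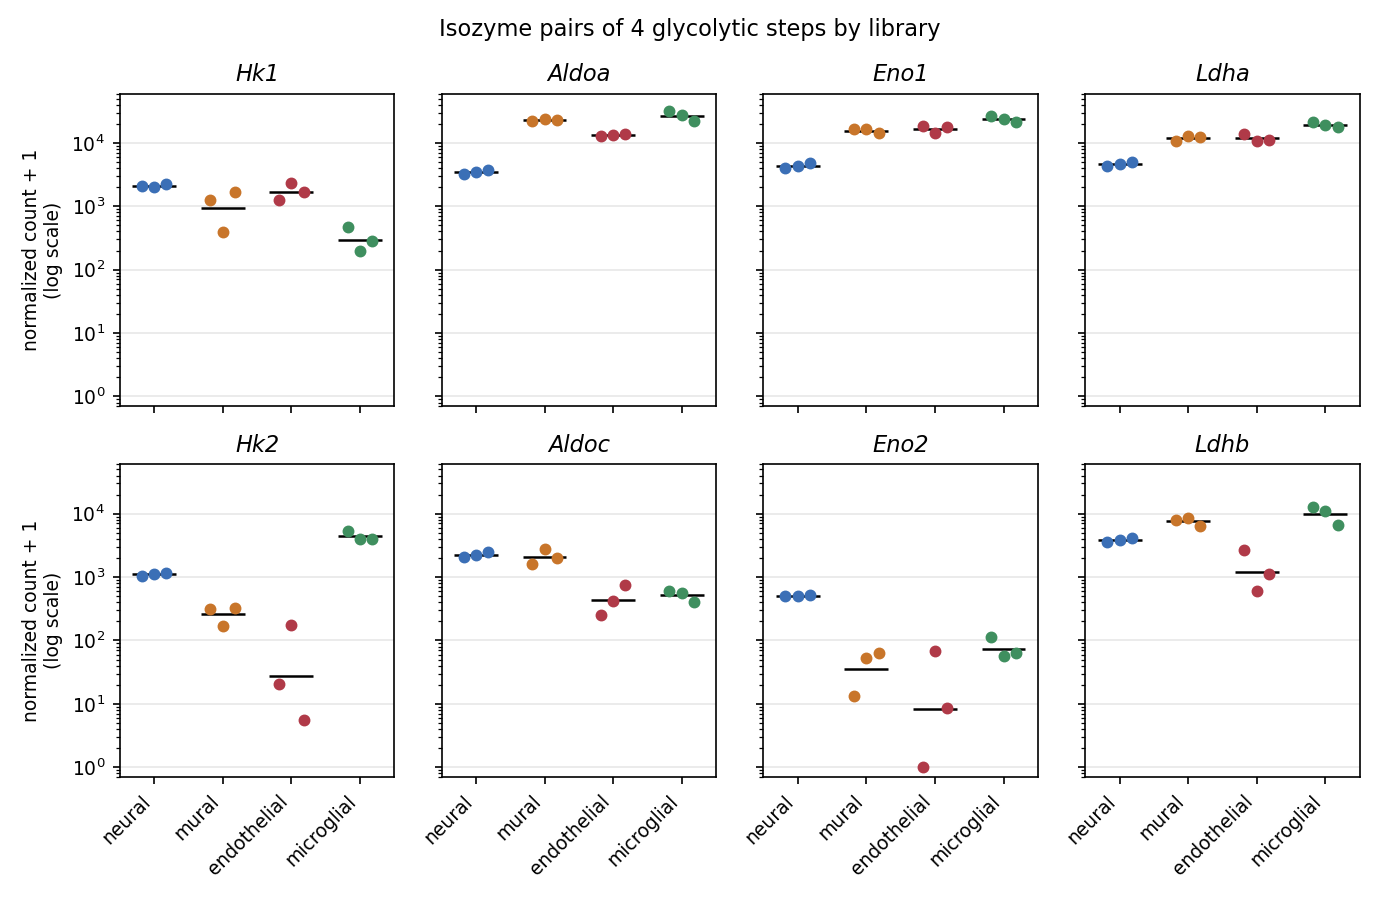
Each panel is 1 gene, the upper and lower row holding the 2 isozymes of 4 steps. Points are libraries (normalized count + 1, log axis) and bars are means on the log scale. Microglia lead *Hk2* and are lowest for *Hk1*, neural libraries lead *Eno2* and are lowest for *Aldoa* and *Eno1*, and endothelial libraries are lowest for *Ldhb*.

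Of the 32 ratio tests, 8 passed at an adjusted p under 0.05. They were *Eno2*/*Eno1*, *Aldoc*/*Aldoa*, *Ldhb*/*Ldha* and *Pfkm*/*Pfkl* in neural libraries, *Hk2*/*Hk1* and *Ldhb*/*Ldha* in endothelial libraries, and *Hk2*/*Hk1* and *Pfkp*/*Pfkl* in microglia. A ratio within a library is not touched by the library's scaling, but it can differ with the kit, which the 4 neural ratios carry. Ratios of *Epas1* to *Hif1a* and of *Egln3* to *Egln1* did not pass in any population.

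Among the genes of the HIF subunits, *Vhl*, *Egln1* and *Egln3*, *Epas1* had the widest range of mean levels. *Hif1a* (chr12:73901375-73947530), the broadly expressed alpha subunit, had 7158, 5526 and 5014 normalized counts in microglia, 5631, 5649 and 5408 in neural, 3912, 3930 and 5509 in mural and 4749, 3381 and 3018 in endothelial libraries. The endothelial difference of -0.52 (SE 0.16, adjusted p = 0.025) was lost without the brain of N-343 (-0.50) and without the brain of N-346 (-0.37). In the single cells *Hif1a* was higher in the microglial gate by 1.04 (SE 0.24, adjusted p = 0.0003). *Epas1* (chr17:86753700-86833410), which encodes HIF-2 alpha, was high in the vascular populations, with 8241, 19680 and 10692 in endothelial and 10469, 7679 and 12677 in mural libraries, against 143, 62.9 and 12.6 in microglia and 16.0, 13.8 and 18.5 in neural libraries. Mural and endothelial levels overlapped and did not differ (-0.26, SE 0.69). The differences from the other 3 populations were 5.88 in endothelial and 5.54 in mural cells (both SE 0.56, adjusted p = 1.8e-05 and 2.8e-05). In the single cells they were 3.48 and 4.14, and *Epas1* was found in 78.7% of endothelial-gate and 89.0% of mural-gate cells but in 8.1% of neural-gate and 10.9% of microglial-gate cells. Per kilobase of exon, *Epas1* exceeded *Hif1a* 3.48-fold in endothelial and 2.42-fold in mural libraries, and *Hif1a* exceeded *Epas1* 111-fold in microglia and 310-fold in neural cells. The microglial value was 169-fold without Mi-340 and 62.3-fold without Mi-346.

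*Arnt*, the partner of both alpha subunits, passed in no bulk contrast, with 1619 ± 25.6 (SD, n = 3) in neural, 1416 ± 560 in mural, 941 ± 465 in endothelial and 1078 ± 97.1 in microglial libraries. *Vhl* (1788 ± 28.8, 1688 ± 455, 1135 ± 451 and 1931 ± 524 in the same order) was called lower in endothelial cells only (-0.71, SE 0.24, adjusted p = 0.035). With brain as a replicate block that call did not pass (adjusted p = 0.058), nor without the brain of N-340 (-0.58) or of N-343 (-0.43), with edgeR on the recovered reads (-0.70), without a filter on low values (-0.71) or after quantile normalization (-0.59). *Egln1*, the main oxygen sensor, was lowest in microglia, with 692, 698 and 867 against 1125 to 2363 in the 9 other libraries (-1.26, SE 0.21, adjusted p = 0.00053). In the microglial gate of the cells its difference was -0.45 (SE 0.27, adjusted p = 0.18) and did not pass. *Egln3*, itself a HIF target, had 201 to 246 in neural libraries and at most 159.9 elsewhere, and was at 0 in Ec-343. Its endothelial difference (-3.02, SE 1.09, adjusted p = 0.045) was lost without the libraries of any 1 brain (-4.09 to -1.22), with edgeR on the recovered reads (-1.68), without a filter (-3.02) and after quantile normalization (-2.93).

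The hypoxia-responsive genes did not move as 1 group. One set was highest in microglia and another in endothelial cells. *Pdk1* (pyruvate dehydrogenase kinase, which holds pyruvate back from the mitochondria) had 3729, 4179 and 3076 normalized counts in microglia, 828, 789 and 775 in neural, 625, 428 and 333 in mural and 1772, 635 and 468 in endothelial libraries, where Ec-340 stood above the other 2. *Bnip3*, a mitophagy receptor, had 2819, 1944 and 1735 in microglia, 498 to 558 in neural, 318 to 506 in mural and 46.1 to 308 in endothelial libraries. *P4ha1*, a collagen prolyl hydroxylase, had 4264, 4464 and 5980 in microglia, 2290 to 2708 in mural, 928 to 2077 in endothelial and 793 to 921 in neural libraries. For these 3 genes the ranges of microglia and of every other population did not overlap. Their differences in microglia were 2.46 (SE 0.34, adjusted p = 0.00016), 2.79 (SE 0.45, adjusted p = 0.00043) and 1.69 (SE 0.23, adjusted p = 0.00013). In the microglial gate of the single cells they were 2.22, 2.38 and 1.45, with adjusted p of 5.4e-06, 2.8e-09 and 2.4e-05. The *P4ha1* call between microglia and mural cells was lost without the brain of N-340 (1.002) or of N-346 (0.88). *Car9*, a cell surface carbonic anhydrase, had 311, 74.7 and 232 in microglia and at most 27.4 elsewhere (4.86, SE 1.06, adjusted p = 0.0033), lost without the brain of N-340 (4.61). Only 5 *Car9* transcripts were found in the microglial gate, so that the cells could not test it.

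*Adm* (chr7:110627661-110629820), which encodes the vessel-dilating peptide adrenomedullin, belonged to endothelial cells. It had 4609, 1651 and 2493 normalized counts there, 259, 130.1 and 433 in mural cells, 0, 36.8 and 7.55 in microglia and 2.67, 3.32 and 2.11 in neural cells. The endothelial difference was 7.18 (SE 0.89, adjusted p = 0.00011) in bulk and 5.42 (SE 0.35, adjusted p = 3.1e-20) in the single cells. *Adm* was found in 41.3% of endothelial-gate cells and in 8.1% of mural, 1.6% of microglial and 1.6% of neural cells. The mural difference of 2.59 (adjusted p = 0.037) was not called with brain as a replicate block (adjusted p = 0.057) or without a filter, nor without the brain of N-340 (2.22) or of N-346 (2.18). *Ankrd37*, an ankyrin repeat protein, had 1545, 823 and 1039 in endothelial and 541, 716 and 780 in mural libraries, 212 to 342.7 in microglia and 74.8 to 86.9 in neural libraries. Its endothelial difference was 2.19 in bulk (SE 0.26, adjusted p = 7.9e-05) and 2.90 in cells (SE 0.43, adjusted p = 1.8e-07). *Higd1a*, a mitochondrial inner membrane protein, had 2604 ± 180 (SD, n = 3) in endothelial, 2321 ± 367 in mural, 1596 ± 150 in microglial and 609 ± 7.75 in neural libraries. Its bulk neural difference of -1.80 (adjusted p = 4.6e-07) was -0.29 (SE 0.30) in the single cells and did not pass there.

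2 stress-responsive members were led by neural libraries in bulk. *Ddit4* (REDD1, an inhibitor of mTORC1) had 2342, 2416 and 2909 in neural, 1044, 2566 and 1415 in endothelial, 512 to 1153 in mural and 397 to 732 in microglial libraries. It was higher in neural cells in bulk (1.53, SE 0.31, adjusted p = 0.0014) and in the neural gate (1.30, SE 0.34, adjusted p = 0.0013), and lower in microglia in both (-1.29 and -2.79), the bulk call being lost without the brain of N-346 (-0.90). In the cells the neural gate did not stand alone. Mean CPM of *Ddit4* was 59.3 in the neural, 59.7 in the mural, 39.9 in the endothelial and 16.6 in the microglial gate. The endothelial gate was also called higher (0.85, SE 0.33, adjusted p = 0.049, edgeR). The dissociation genes summed highest in microglia and lowest in neural libraries. *Ndrg1* had 562, 592 and 663 in neural libraries and 19.9 to 207 elsewhere (2.76, SE 0.61, adjusted p = 0.0024), lost without the brain of N-346 (2.62). It was too sparse in the single cells to be tested.

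**Figure D3:**
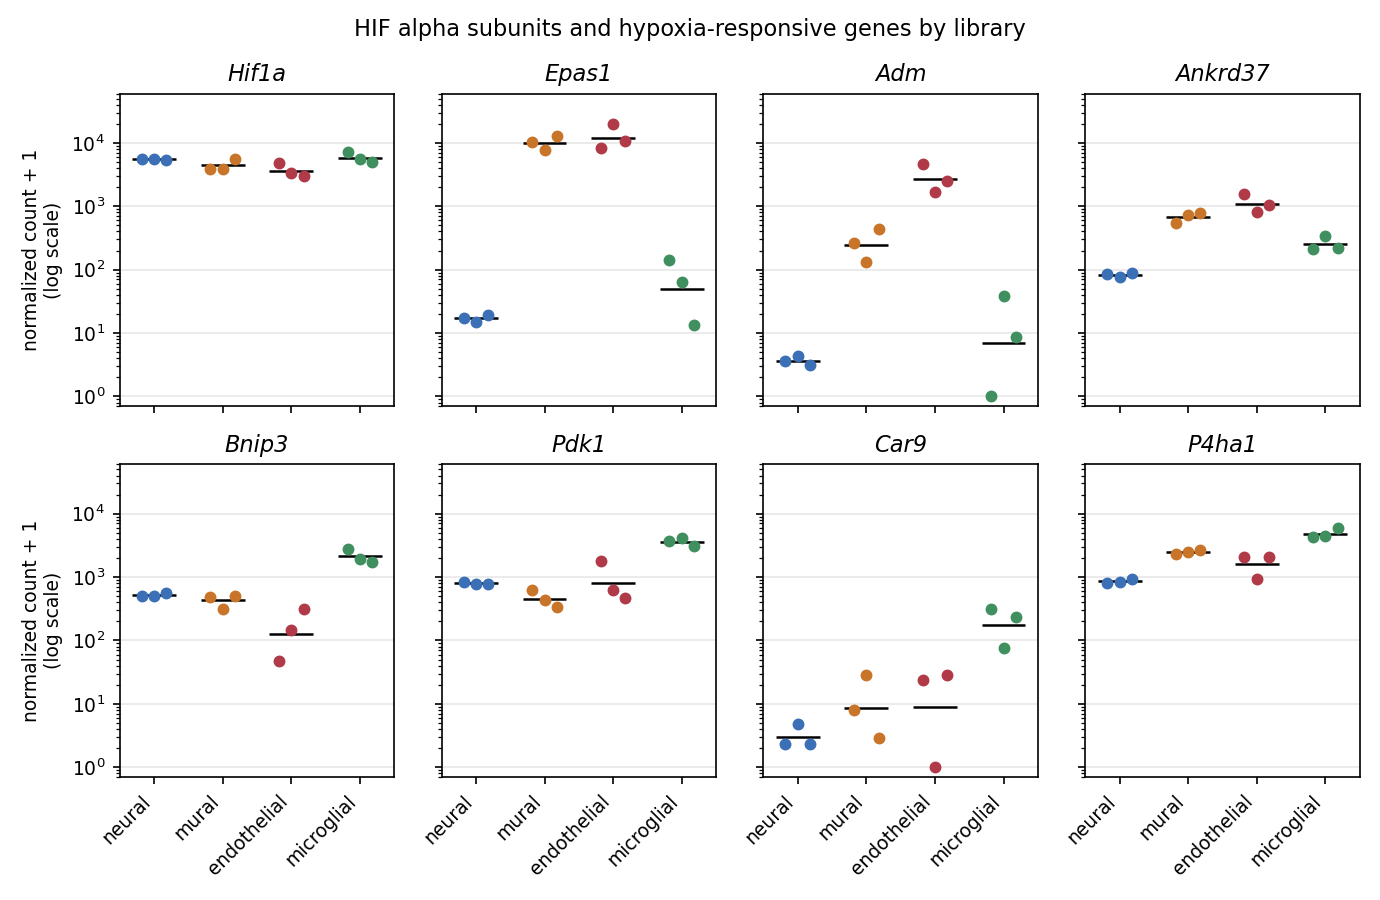
Points are bulk libraries (normalized count + 1, log axis) and bars are means on the log scale. *Hif1a* stays between 3018 and 7158 normalized counts in all 12 libraries, *Epas1*, *Adm* and *Ankrd37* lead in vascular populations, and *Bnip3*, *Pdk1*, *Car9* and *P4ha1* lead in microglia.

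Counts for neural and endothelial cells were more even, while mural cells also had more higher than lower genes. Of the 33 genes, 9 were higher and 14 lower in neural cells, where 32.9% and 31.2% of all genes were. In mural cells 10 were higher and 5 lower (19.3% and 22.7% of all genes), and in endothelial cells 9 higher and 12 lower (19.7% and 22.4%). The 3 pairwise contrasts, which used 1 kit, gave 8 higher and 6 lower genes in mural than in endothelial cells (13.5% and 14.3% of all genes), 15 higher and 8 lower in microglia than in endothelial cells (17% and 15.3%), and 13 higher and 7 lower in microglia than in mural cells (20.1% and 17.9%). Among called genes, mural cells exceeded endothelial cells most in *Hk2* (3.26, SE 0.94), *Ldhb* (2.64, SE 0.43) and *Aldoc* (2.29, SE 0.36), and were below them most in *Adm* (-3.44, SE 1.09), *Pfkfb3* (-2.85, SE 0.43) and *Pfkp* (-2.06, SE 0.40). The *Adm* call between them was lost with brain as a replicate block (adjusted p = 0.059), without a filter and without any 1 brain (-3.90 to -3.09). *Hk2* was lost without the brain of N-340 (2.91) or of N-346 (1.94) and with edgeR on the recovered reads (2.06), and *Pfkp* without the brain of N-343 (-2.01). These contrasts share libraries, so their counts are not independent.

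In the single cells 29 of the 33 genes had enough transcripts to be tested among 9281 genes. Of these, 16 were higher and 7 lower in the microglial gate (22.2% and 21.2% of all genes), 4 higher and 7 lower in the neural gate (22.5% and 17.3%), 4 higher and 2 lower in the mural gate (13.5% and 8.3%), and 8 higher and 6 lower in the endothelial gate (16.4% and 6.96%). DESeq2 on the same sums called 9 higher and 6 lower in the microglial, 3 and 5 in the neural, 2 and 1 in the mural and 4 and 2 in the endothelial gate, and over all genes also fewer (in the microglial gate 1180 against 2056 higher). Of the 19 genes called in microglia in both assays 19 had the same direction. The same held for 10 of 10 in endothelial, 10 of 10 in neural and 5 of 5 in mural cells. Over all 29 genes the sign differed between the assays for 7 in neural, 6 in mural, 8 in endothelial and 0 in microglial cells. Of these, 3, 2, 2 and 0 were called in bulk, among them *Pfkfb3* (1.18 in bulk and -0.42 in the cells) and *Egln1* (0.86 and -0.54) in neural and *Aldoc* (-1.65 and 1.06) in endothelial cells, and no gene of opposite sign was called in both assays. Of the genes called in bulk, 10 of 20 in neural, 5 of 15 in mural, 10 of 19 in endothelial and 19 of 22 in microglial cells were also called in the cells. The same shares over all genes are not given here, so these counts of agreement do not set the members apart from other genes. The 18 pathway genes summed to 5134 and 4694 CPM on plates 1 and 2 in the microglial gate and 2227 on plate 3, which held 6 such cells. They summed to 3596, 3271 and 2637 in the mural, 3242, 2449 and 2125 in the neural and 2608, 2438 and 1653 in the endothelial gate. Dissociation genes summed to 3861 to 7571 in the microglial, 4469 to 7623 in the mural, 1494 to 1886 in the endothelial and 405 to 1154 in the neural gate. Fewer calls of the cells passed without plate 1 or 2, when plate 3 with its 43 cells and 1 other plate remained, and every member call lost then kept its direction. Over all genes the calls fell as well, in the microglial gate from 2056 higher to 883 and 914. Without plate 1, 15 of the 16 genes higher in the microglial gate could still be tested and 7 of them passed, and without plate 2, 7 of 16. In the endothelial gate, of the 8 higher genes, 6 could still be tested and 2 passed without plate 1, and likewise without plate 2. Without plate 3 all 16 and all 8 passed. The difference of *Hk1* in the endothelial gate, for example, was 1.27 with all plates and 1.48 and 1.32 without plates 1 and 2, while that of *Ldhb* in the microglial gate was 0.76 and then 1.0997 and 0.33.

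**Figure D4:**
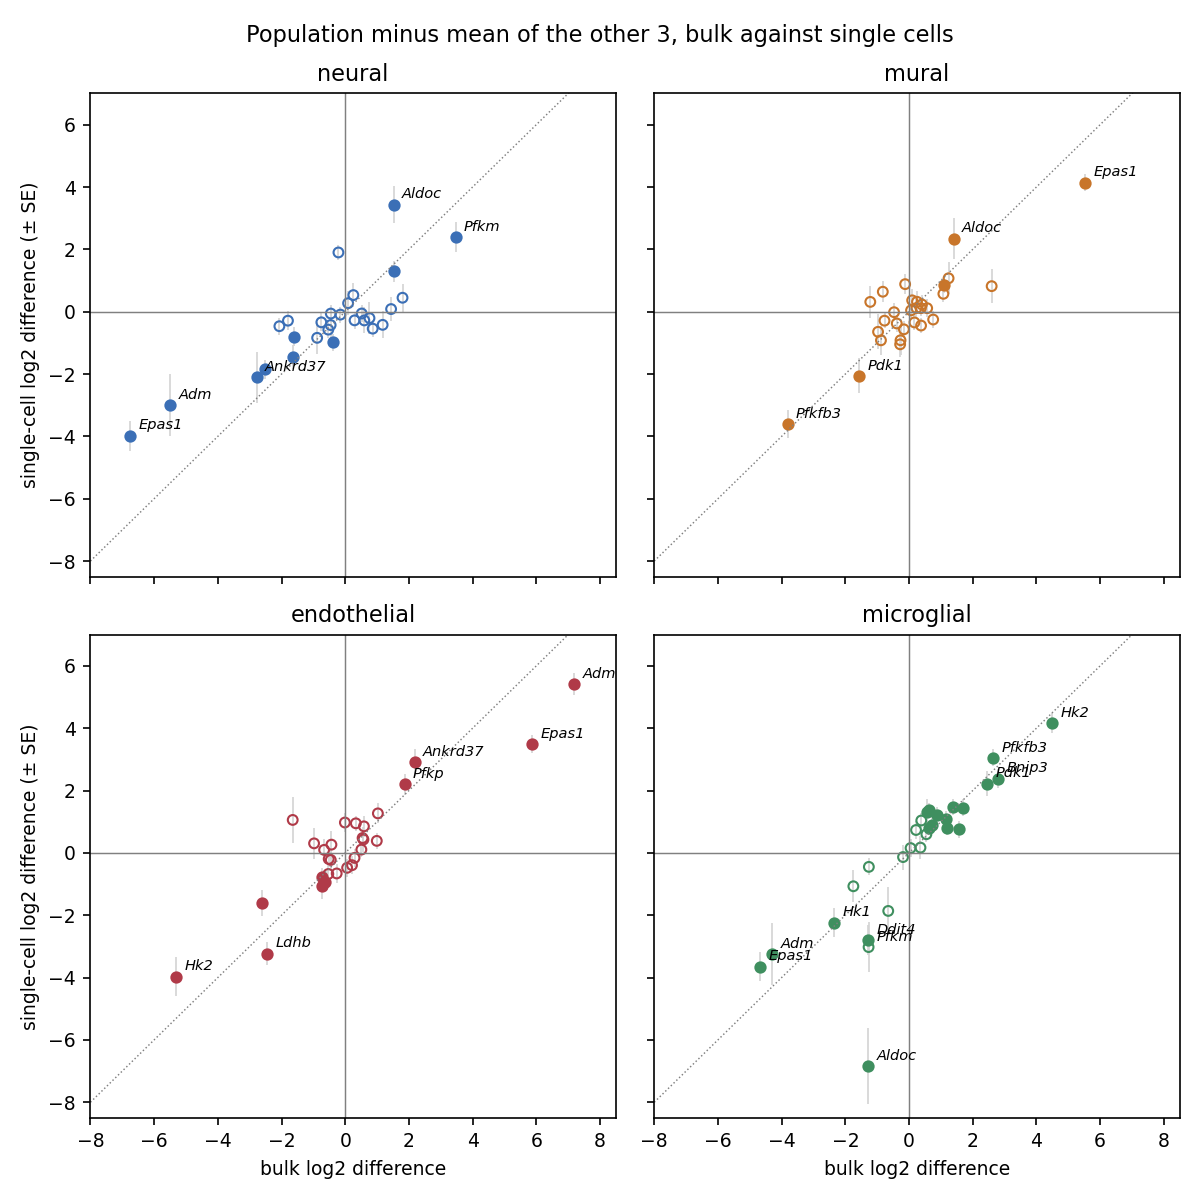
Each point is a gene, with the bulk log2 difference of a population from the mean of the other 3 on the x axis and the single-cell difference (± SE) on the y axis. Filled points passed in both assays and the dotted line marks equal values. *Hk2*, *Pfkfb3*, *Bnip3* and *Pdk1* lie high for microglia and *Adm* and *Epas1* for endothelial cells in both, and the point of *Aldoc* in microglia is a fitted value for a gene at 0 transcripts and is not a bound.

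Within the neural gate, clusters led by progenitor markers and by neuron markers held different members. The values are a description of clusters from the same cells, without a test. On plates 1 and 2, with 22 and 17 progenitor-like and 33 and 35 neuron-like cells, *Ldha* had 549 and 494 CPM in progenitor-like cells against 187 and 105 in neuron-like cells. *Gapdh* had 1331 and 1021 against 650.1 and 411, *Pgk1* 181 and 135 against 71.4 and 40.7, and *Aldoc* 148 and 231 against 17.0 and 6.78. On the neuron-like side lay *Ldhb*, with 204 and 166 against 109.6 and 95.6, *Pfkm*, with 51.0 and 27.1 against 12.9 and 23.9, and *Pfkp*, with 27.2 and 17.0 against 0 and 0. *Eno2* had 27.2 and 13.6 in neuron-like and 6.45 and 0 in progenitor-like cells. The last 3 genes rest on few transcripts. *Eno2* had 8 and 4 in neuron-like against 1 and 0 in progenitor-like cells, *Pfkp* 8 and 5 against 0 and 0, and *Pfkm* 15 and 8 against 2 and 3. The neuron-like sums held 294150 and 294889 transcripts of all genes and the progenitor-like sums only 155092 and 125549. On plate 3, with 6 and 8 such cells, *Gapdh* lay the other way, at 423 CPM in progenitor-like and 535 in neuron-like cells, and *Aldoc* had 0 in both. Among endothelial-like cells, *Adm* was low in 1 cluster, led by *Cxcl12*, *Gja4* and *Vwf*, with 7.15 CPM in 26 knockout cells, against 111 to 222 in the knockout cells of the other 3 clusters. The highest of these, led by *Col15a1*, *Plvap* and *Apln*, had 222 in knockout and 242 in wild-type cells. *Epas1* had its highest level, 1188, in the *Cxcl12* cluster and 350.1 to 696 in the others. The *Adm* level of the wild-type cells of the *Cxcl12* cluster (14, 3 and 1 on plates 1, 2 and 3) is not given, so that its low value rests on knockout plate 6.

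The *Mof* Knockout plates were compared with the wild-type plates to ask whether the loss of the enzyme moved these genes. *Kat8* itself, over all cells of a plate, had 12.7, 10.4 and 11.2 CPM on knockout plates 4, 5 and 6 and 16.3, 17.6 and 17.5 on wild-type plates 1, 2 and 3, that is 36, 18 and 23 transcripts against 46, 46 and 5. The method reads the 3' end, and which part of the gene was deleted is not given in the sources used here, so these values are a weak check of the labels. In the neural-like cells compared below, *Kat8* had 5.06, 7.65 and 26.1 CPM on knockout plates 4, 5 and 6 (3, 7 and 7 transcripts) and 24.7, 28.1 and 10.2 CPM on wild-type plates 1, 2 and 3 (16, 14 and 1 transcripts), so that plate 6, labelled knockout, lay within the wild-type range. Cells kept on the plates numbered 337, 195 and 350 in knockout and 349, 317 and 43 in wild type. The knockout plates differed in their cells, with 258 mural-like cells on plate 4, 33 microglial-like cells on plate 5 and 173 endothelial-like cells on plate 6, and each held neural-like cells (61, 112 and 38). Plate and genotype cannot be told apart, since no plate held both.

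In neural-like cells no member passed the test between genotypes (edgeR quasi-likelihood, 3 plates against 3). None of 7619 genes was called higher or lower (0%), 354 had an unadjusted p under 0.05, and DESeq2 called 2 higher and 2 lower, none of them a member. Of the 25 members tested 6 had an unadjusted p under 0.05 and 19 a positive difference. The median difference of the members was 0.56, against 0.03 over all genes. *Eno1* had 317, 128 and 108 CPM on knockout plates 4, 5 and 6 and 89.4, 80.4 and 50.9 on wild-type plates 1, 2 and 3, a difference of 1.28 (SE 0.43, adjusted p = 0.91). *Aldoa* had 493, 270.1 and 142 against 140, 131 and 102, a difference of 1.27 (SE 0.43, adjusted p = 0.91). *Tpi1* had 518, 247 and 205 against 224, 157 and 81.5. For *Aldoa*, *Eno1*, *Gpi1*, *Pkm*, *Hif1a*, *Ddit4* and *Egln3* all 3 knockout plates were above all 3 wild-type plates, and no member was below. Of the 25 members tested these were 6, without *Egln3*, where 5.63% of all genes tested were above in this way and 5.18% below. Without a filter on low counts *Egln3* and *Aldoa* passed (adjusted p = 0.017 and 0.031), where 0.333% of 18932 genes were called higher and 0.0951% lower.

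The makeup of the neural-like cells differed between plates. Progenitor-like cells made up 96.7% of them on plate 4, 43.8% on plate 5 and 26.3% on plate 6, against 52.4%, 36.7% and 43.8% on plates 1, 2 and 3. Within progenitor-like cells the 18 pathway genes summed to 6031, 6148 and 4659 CPM on the knockout plates (59, 49 and 10 cells) and to 4208, 3984 and 1982 on the wild-type plates (43, 22 and 7 cells). Within neuron-like cells they summed to 2395 and 2336 on knockout plates 5 and 6 (63 and 28 cells) and to 2708, 1928 and 2498 on the wild-type plates. These are values without a test, and different clusters made up the progenitor-like cells. On plate 4, 35 of 59 lay in a cluster led by *Spon1* and *Fgfbp3* and 21 in one led by *Rspo3* and *Rspo1*, while 49 of 49 on plate 5, 9 of 10 on plate 6 and 29 of 43, 18 of 22 and 7 of 7 on the wild-type plates lay in another cluster, led by *Dlx1*. Within that cluster the pathway genes summed to 6093 (3 cells), 6148 and 4488 CPM on knockout plates 4, 5 and 6 and to 3976, 3931 and 1982 CPM on the wild-type plates. *Aldoa* in progenitor-like cells had 502, 331 and 202 against 153, 131 and 70.8, and *Eno1* 323, 183 and 191 against 118, 152 and 35.4. On plate 6, 1 cell of the *Spon1* cluster had 800 CPM of *Eno1*, and the 9 cells of the *Dlx1* cluster had 114. Within the *Dlx1* cluster the genotypes overlapped for both genes. *Aldoa* had 138 (3 cells), 331 and 177 there against 152, 130 and 70.8, and *Eno1* 519 (3 cells), 183 and 114 against 90.4, 130 and 35.4.

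**Figure D5:**
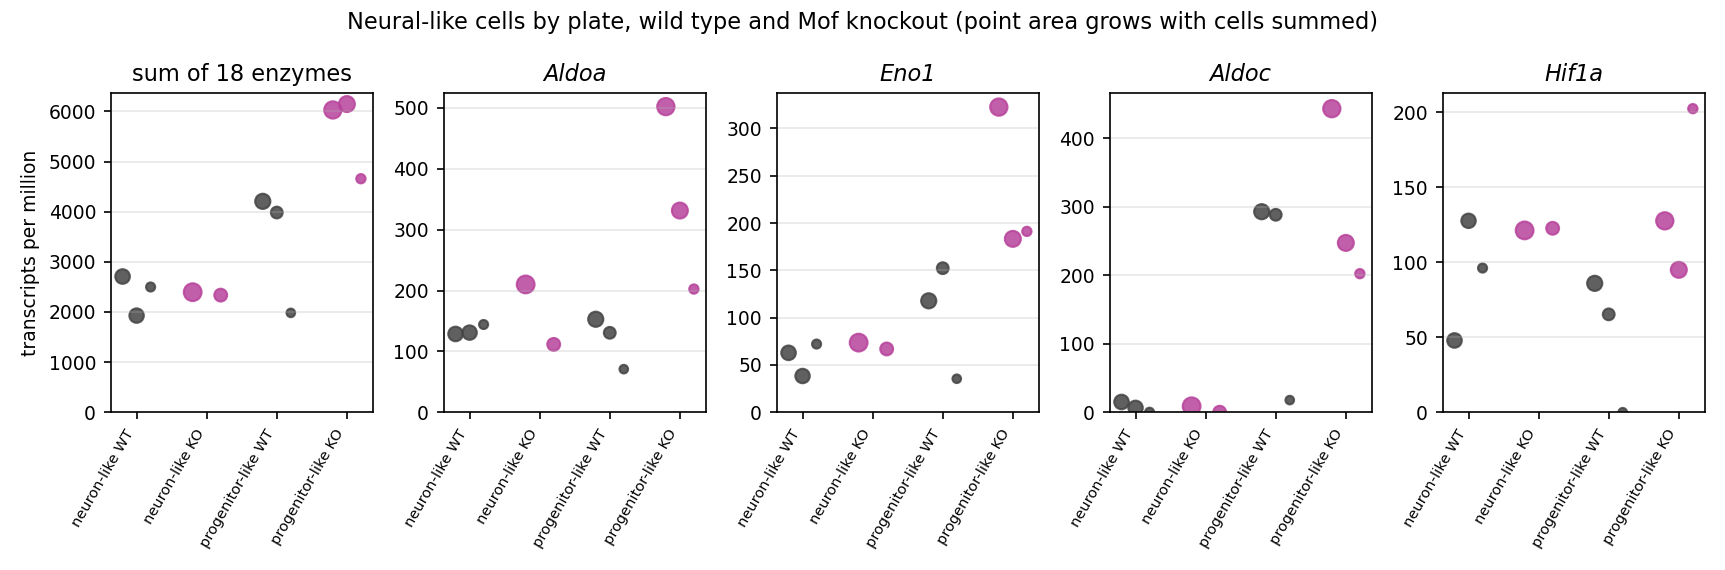
Points are plates (summed cells of 1 class, CPM), black for wild type (WT) and pink for *Mof* Knockout (KO), with a larger point for more cells. Plate 4 is not shown for neuron-like cells, of which it held 2. The sum of the 18 pathway genes lies at 4659 to 6148 in knockout and 1982 to 4208 in wild-type progenitor-like cells, and the genotypes overlap in neuron-like cells.

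In the other classes the knockout plates are set beside the wild-type plates for genes that set populations apart, with 1 knockout plate each and no test. Plates with fewer than 20 cells of a class were left out, among them wild-type plate 3 with 6 microglial-like, 3 endothelial-like and 9 mural-like cells. On knockout plate 5 a further 46 cells, in the cluster with 8 of 8 microglial markers that was led by *Pf4* and *Mrc1*, were not counted as microglial-like. In microglial-like cells *Hk2* had 94.2 CPM in knockout and 132 and 127 on wild-type plates 1 and 2, and *Pfkfb3* 188 against 132 and 132. In endothelial-like cells *Adm* had 144 against 167 and 261, and *Ldhb* 9.18 against 3.79 and 10.2. In mural-like cells *Epas1* had 819 against 747 and 866, and *Pfkfb3* 14.7 against 0 and 4.76.

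Other genes of the same pathways, taken from 4 fixed lists, were counted in bulk. Of 22 further genes of glycolysis and of glucose and lactate transport 18 were tested, and 9 were higher and 3 lower in microglia (of all genes, 23.4% and 22.3%), 7 and 6 in neural (32.9% and 31.2%), 2 and 4 in mural (19.3% and 22.7%) and 3 and 4 in endothelial cells (19.7% and 22.4%). *Hk3*, a myeloid hexokinase, had 3603 ± 620 (SD, n = 3) in microglia and 74.5 ± 7.92 at most elsewhere (8.28, SE 0.56), and its neural difference was -5.47. *Slc2a3* (GLUT3) had 2742 ± 496 in mural, 701 ± 84.2 in neural and 380 ± 32.7 in microglial libraries and was at 0 in all endothelial libraries, so that mural cells were at least 583-fold higher over the floor of 3 reads a library. The lactate carrier *Slc16a7* (MCT2) had 543 ± 85.3 in microglia, 228 ± 29.5 in neural and 8.25 ± 13.3 in mural libraries and 0 in all endothelial libraries, at least 116-fold below microglia.

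Of 12 genes of pyruvate entry into mitochondria, all tested, 6 were higher and 0 lower in mural cells (of all genes, 19.3% and 22.7%), 0 and 4 in endothelial (19.7% and 22.4%), 2 and 4 in neural (32.9% and 31.2%) and 3 and 3 in microglial cells (23.4% and 22.3%). The carrier subunit *Mpc2* was higher in mural cells (0.91, SE 0.11) and lower in neural cells (-1.73), and the phosphatase *Pdp1* was higher in neural cells (2.16, SE 0.56). Among the kinases that oppose it, *Pdk4* was higher in mural cells (3.04, SE 1.11) and lower in microglia (-5.56), *Pdk2* was lower in microglia (-1.25) and *Pdk3* lower in endothelial cells (-1.07), as was *Pdha1*, a subunit of the dehydrogenase (-0.48). Of 8 further genes of the HIF machinery 5 were higher and 1 lower in mural, 3 and 4 in neural, 2 and 2 in endothelial and 0 and 1 in microglial cells, beside the same shares of all genes. *Arnt2*, the neural paralog of *Arnt*, had 9421 ± 171 in neural libraries and 79.3 ± 35.8 at most elsewhere (8.79, SE 1.33). *Hif1an* was higher in neural cells (2.46, SE 0.45). *Hif3a* had 627 ± 243 in endothelial, 520 ± 232 in mural, 287 ± 5.06 in neural and 38.7 ± 21.5 in microglial libraries, and *Elob* was higher in mural cells (1.29).

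Of 26 further hypoxia-responsive genes 25 were tested. In neural cells 10 were higher and 7 lower (of all genes, 32.9% and 31.2%), 9 and 5 in the mural (19.3% and 22.7%), 9 and 7 in the endothelial (19.7% and 22.4%) and 4 and 9 in the microglial population (23.4% and 22.3%). *Vegfa*, the angiogenic growth factor, had 2446 ± 166 in neural libraries and 113 ± 20.4 at most elsewhere (5.82, SE 0.63). *Vldlr* had 1727 ± 81.0 in neural libraries and 33.3 ± 50.04 at most elsewhere. *Stc1*, stanniocalcin, had 2282 ± 689 in mural libraries and 0 in all microglial libraries, so that mural cells were at least 628-fold higher over the floor. *Loxl2* was lower in microglia (-6.76, SE 0.42), and *P4ha2* and *Stc2* in endothelial cells (-5.32 and -4.15).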

How the data were processed

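Bulk RNA-seq of 4 sorted populations from 3 brains and mCEL-Seq2 of 23 libraries on 6 plates were used. The deposited bulk values are normalized counts, a signal made of whole reads divided by 1 factor per library (of 124078 values up to 100 reads, 100% came out whole within 0.01). The deposited single-cell values are expected counts, corrected for repeated draws among 4096 identifiers, and their sums were rounded. The submitters' processing notes name BWA 0.6.2-r126, STAR, featureCounts and DESeq2 and the build mm10. Symbols and positions come from GENCODE vM21 (53360 of 53465 genes).

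Bulk values were compared by limma 3.58.1 (R 4.3.3) on log2(normalized count + 1), so that differences of low genes are understated, for 19765 genes with a mean of at least 10, 12 libraries in 1 fit, Benjamini-Hochberg adjusted p under 0.05. Same-numbered libraries came from the same brain by their labels, and brain as a replicate block was an alternative (residual correlations between populations of a brain lay between -0.054 and 0.0801). Cells with over 1500 transcripts were summed per plate and gate and tested with edgeR 4.0.16 after its filter, SE being the difference over the root of F, with DESeq2 1.42.0 as an alternative. Ratios were tested by exact permutation of all 12 libraries, without regard to brain, and no version within brains was run. All tests were two-sided. Whether plates are separate animals is not stated for each, and p-values may measure technical spread.

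Clusters (scanpy 1.11.5, igraph 0.11.9, Leiden at resolution 1, 2000 variable genes, 30 components) left the members out. A name needed at least 3 markers of a list over 2-fold, more than of all other lists together, no other list with more markers among the 10 leading genes and, where none of its own was among these, a median depth not far below that of the plates (a cut at the plates' median divided by 3). Other clusters stayed unnamed, among them 1 with 3 mural markers and low depth and 1 with 8 of 8 microglial markers that was led by the border macrophage markers *Pf4* and *Mrc1*. Doublets were not removed. All libraries of 1 barcode set share its 96 barcodes (11 libraries with one set, 12 with the other). Python 3.11.15, numpy 2.4.6, pandas 2.3.3, scipy 1.17.1 and matplotlib 3.10.9 were used. On simulated data the bulk test recovered 100 of 100 genes changed 4-fold and 82 of 100 changed 2-fold, and the knockout test 155 of 200 changed 4-fold. The simulated counts had the same spread for every gene and no effect of brain, plate or cell makeup. These rates therefore do not measure what the tests could find in the real libraries. The members and lists were chosen with earlier results of these data known. All members were named, and from the other lists the 2 called genes with the largest difference per population. Alternatives were another pseudocount (10), no filter, quantile normalization, the block, each replicate left out, DESeq2, cells over 3000 transcripts and, for neural-like cells, assignment by marker level. A test with edgeR on the recovered reads was added after seeing the data.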

Additional observations from a re-analysis of the deposited data

Results flagged for a closer look

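Each single-cell library used 96 barcodes, and the columns of the other 96, which belong to no well of that library, held 2.27% of all transcripts. This signal lies in data that no comparison used. It bears on low single-cell values of the 33 genes, such as *Epas1* in 8.1% of neural-gate cells, and its part in them was not tested.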

How the results depend on the processing

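Of 193 calls of a member in a contrast, 102 held in every alternative that gave a value. Quantile normalization shifted the median of all genes by -0.25 for neural, 0.14 for mural and 0.11 for endothelial cells and turned *Pkm* in neural cells to 0.060. With brain as a replicate block 10 members were higher in neural cells and 133 of 139 bulk calls held, and with plate as a replicate block 54 of 54 calls of the cells held. edgeR on the recovered reads, added after seeing the data, called 6712 genes higher and 5576 lower in neural cells and kept 129 of 139 member calls. Over all genes it called fewer lower, with 2483 of 20752 in endothelial cells (4430 of 19765 by limma), 2826 in mural cells (4485) and 3196 in microglia (4406), so that these background shares depend on the test. Leaving out 1 brain gave 5 to 8 members higher in mural cells, 7 to 10 lower in endothelial cells, 4 to 7 lower in microglia, 5 to 7 higher and 3 to 4 lower in mural than endothelial cells, and 7 to 12 higher and 4 to 5 lower in microglia than mural cells. Over all genes these counts also fell, to 2627 to 2972 (3821 with all brains), 3176 to 3455 (4430), 3372 to 3482 (4406), 1736 to 1893 (2660) and 1783 to 2206 (2836), and 2867 to 3271 (3980) and 2597 to 2719 (3531) in the same order. Leaving out 1 plate gave 1 to 4 higher and 2 to 11 lower in the neural gate, 1 to 5 and 1 to 2 in the mural gate, 2 to 9 and 2 to 10 in the endothelial gate, and 7 to 17 and 3 to 7 in the microglial gate. Over all genes, 6427 to 10091 of which were tested, this gave 759 to 2242 and 744 to 2232 in the neural gate (2084 and 1610 with all plates), 594 to 1704 and 128 to 822 in the mural gate (1257 and 770), 647 to 1979 and 64 to 877 in the endothelial gate (1521 and 646), and 883 to 2410 and 803 to 2352 in the microglial gate (2056 and 1970). Of 54 calls of the cells, 32 held with DESeq2, 52 with cells over 3000 transcripts and 47 without a filter, and of those that could be tested, 21 of 44 held without plate 1, 24 of 50 without plate 2 and 54 of 54 without plate 3. Of 139 bulk calls 131 held after quantile normalization and 132 without a filter. DESeq2 gave 2 higher and 1 lower in the mural gate, 4 and 2 in the endothelial gate and 9 higher in the microglial gate, where over all genes it gave 781 and 270, 882 and 188, and 1180. Without a filter 2 members were higher in knockout neural-like cells. All 8 ratios passed with a pseudocount of 10. The causes were not tested. Plate 3 held 43 cells, which limits the cells' precision.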
